A study of Mus musculus with 4 samples.

Results

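The mitochondrial genome of the mouse holds 37 genes, and all 37 had a row in the table of read counts, of 49997 rows in all. They were taken as every row whose exons lie on the mitochondrial chromosome (chrM, mm10) and nowhere else: 13 mRNAs, 2 rRNAs and 22 tRNAs. RNA was sequenced from E14 mouse embryonic stem cells (ESCs), a line from the early embryo, in which Ythdf2 was or was not knocked down. Both groups had been infected with lentivirus and selected with puromycin as stable lines, carrying either a scrambled short hairpin (shScramble, 2 libraries) or one against Ythdf2 (shYthdf2, 2 libraries). Per the study's methods, ESCs of this work carry a tdTomato reporter driven by the MERVL promoter, RNA was selected for poly(A) tails, and the libraries of each group are independent biological replicates. Both groups grew on gelatin with serum replacement and leukemia inhibitory factor, without a treatment named in the labels. The labels do not say which of the study's hairpins against Ythdf2 was used, so the knockdown may stand for a single hairpin.

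Mitochondrial DNA is transcribed from both strands as long RNAs that span many genes. The mRNAs and rRNAs are mostly separated by tRNAs, and cutting out the tRNAs releases them, an arrangement called tRNA punctuation. Inside the organelle, the mRNAs gain short poly(A) tails, which complete the stop codon where the gene itself ends before the codon is whole. YTHDF2 is a cytoplasmic protein that binds mRNAs marked with m6A and promotes their decay, and mitochondrial transcripts lie behind the mitochondrial membranes.

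Of the 37 genes, 16 had reads and passed the filter on low counts: the 13 mRNAs, both rRNAs and the proline tRNA gene TrnP. The other 21 tRNA genes had 0 reads in all 4 libraries. At a depth of 31113006 to 36422510 counted reads per library, 0 reads allow up to 3 reads, which is 0.083 to 0.095 CPM (reads brought to one common sequencing depth by TMM, the scaling method of edgeR). This limit covers counting error only, and it applies to reads assigned to the gene, not to the tRNA itself. The tRNA genes are 59 to 75 bases long. Along the linear reference, each of the 21 without reads sits in a stretch of 58 to 105 bases that no other gene covers, while the reads were 150 bases long. TrnF starts at base 1, so its stretch was cut off by the start of the reference and not by a gene. Reads that touch several genes are left out by the counting defaults, and how far this rule set the zeros was not tested. TrnP is the last gene before the noncoding control region, so a read can run from it into sequence with no other gene. It lies at chrM:15356-15422 on the minus strand and is shown because it was the one tRNA gene with reads, with its anticodon in capitals. The sequences here and below are from the mm10 transcripts of GENCODE.

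TrnP: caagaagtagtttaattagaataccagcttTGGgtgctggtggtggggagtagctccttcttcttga

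TrnP had 249 and 216 reads in shScramble and 259 and 205 reads in shYthdf2, or 6.91, 6.86, 7.58 and 5.73 CPM. The groups overlapped, and the log2 fold change of shYthdf2 over shScramble was -0.05 (SE 0.24, edgeR adjusted p = 0.94). It was -0.27 without shYthdf2 replicate 1 and 0.14 without shYthdf2 replicate 2. Both strands were counted together, so reads of the tRNA and of a transcript opposite to it cannot be told apart.

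The mRNA genes also differ in how much of their sequence a read can use. A row of nuclear copies on chromosome 1, between 24611535 and 24616197 on the minus strand (mm10), carries stretches of COX1, COX2, ATP6, COX3, ND3, ND4L and ND4. Over the 7 copies, 4142 of 4149 compared bases were identical to the mitochondrial genes, and 5 of the 7 copies had no difference at all. The start of COX2 and of its copy Gm28661 is given here because the pair is identical, with the start codon in capitals. COX2 is shown from chrM:7013-7072 on the plus strand, and Gm28661 from chr1:24615506-24615565 on the minus strand. A stretch of COX1 (chrM:6390-6434, plus strand) and of its copy Gm29216 (chr1:24616144-24616188, minus strand) is given because it holds the last difference between them, A1066T, counted from the first base of COX1 with the mitochondrial base first and marked in capitals.

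COX2: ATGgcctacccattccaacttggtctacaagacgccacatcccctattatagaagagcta
Gm28661: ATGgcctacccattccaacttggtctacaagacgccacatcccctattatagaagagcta
COX1: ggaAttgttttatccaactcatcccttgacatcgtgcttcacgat
Gm29216: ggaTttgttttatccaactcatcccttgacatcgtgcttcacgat

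The shared sequence was measured as the share of all 150-base windows of a gene that occur, letter for letter, in an annotated transcript from elsewhere. It was 99.8% for COX3 (634 of 635 windows), 99.4% for COX2 (532 of 535) and ATP6 (529 of 532), 98.0% for ND4L (145 of 148) and 97.0% for ND3 (193 of 199). ND4 had 59.2% of its windows shared and COX1 23.6%. The other mRNAs and both rRNAs had 0 shared windows. For ATP8 this says little, since the annotation holds no transcript over the part of chromosome 1 that faces it, and that part was not compared here.

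The counted level followed this split. Per kilobase of gene, COX1 had the highest mean over the 4 libraries (3978 CPM per kb), then CYTB (3716), ND1 (2176), ND2 (1158), ND5 (1002), ND4 (704) and ND6 (631). These are 7 mRNAs with many windows of their own. The lengths used include the shared stretches of COX1 and ND4. Per window that is neither shared nor reaches into another gene, the means were 5.77 CPM (COX1), 4.27 (CYTB), 2.58 (ND1), 1.93 (ND4), 1.36 (ND2), 1.1 (ND5) and 0.92 (ND6). By that measure ND4 came before ND2 and ND5. The 5 mRNAs whose windows were almost all shared had 77.8 CPM per kb (COX2), 27.6 (ND4L), 25.9 (ATP6), 9.68 (COX3) and 2.60 (ND3). Together those 5 held 0.428% to 0.569% of the reads on mitochondrial mRNAs, and the 7 others named held 99.1% to 99.5%. ATP8, at 111 CPM per kb, and the rRNAs mt-Rnr2, at 186, and mt-Rnr1, at 133, lay between. Reads that fit several places equally well are left out by the counting defaults, and how much this lowered each gene was not tested. The counts of COX2, ATP6, COX3, ND3 and ND4L are therefore uncertain as levels of the mitochondrial mRNA.

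**Figure D1:**
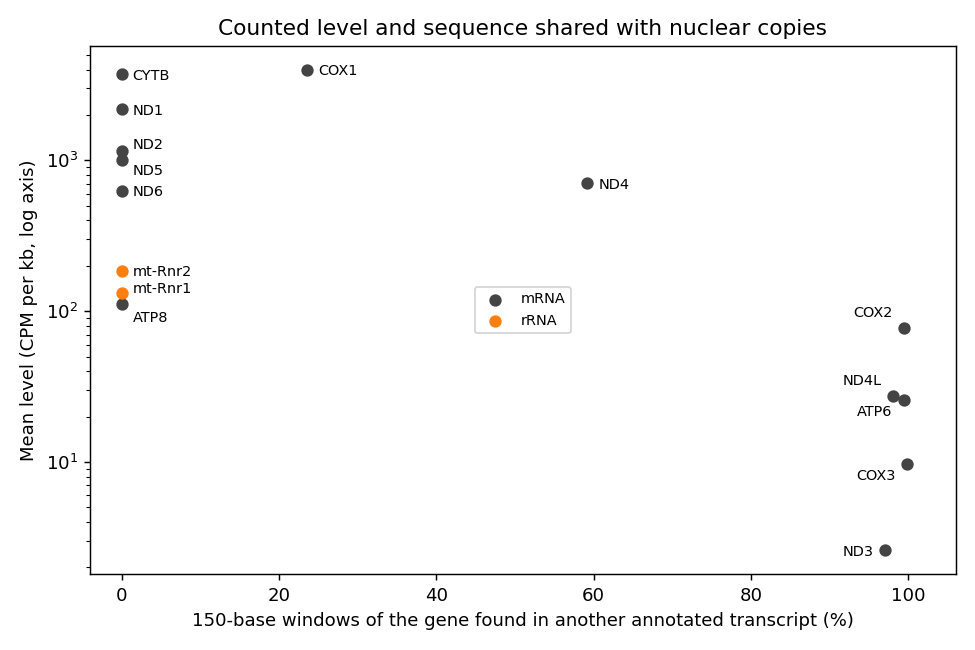
Mean counted level of each mitochondrial mRNA (grey) and rRNA (orange) over 4 libraries, in CPM per kb on a log axis, against the percentage of its 150-base windows found in another annotated transcript. The 5 genes at 97.0% or more lie between 2.60 and 77.8 CPM per kb, while COX1 and CYTB lie at 3978 and 3716 CPM per kb. Each point is 1 gene.

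Per kilobase of full gene, the order of the best covered mRNAs was not fixed. In the libraries numbered 1, CYTB was above COX1 per kilobase (3988 against 3922 CPM per kb in shScramble, 4568 against 4332 in shYthdf2). In the libraries numbered 2 it was below COX1 (2961 against 3573 in shScramble, 3346 against 4086 in shYthdf2). By this measure COX1 and CYTB could thus not be ranked beyond the spread between replicates. Per window of its own, as above, COX1 had the higher mean (5.77 against 4.27 CPM for CYTB). That measure was not compared library by library. ND1 came next in all 4 libraries, from 1594 to 2846 CPM per kb. ND2 and ND5 changed places as well: ND2 was above ND5 in 3 libraries and below it in shScramble replicate 2 (860 against 984 CPM per kb).

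Knockdown of Ythdf2 was checked before the groups were compared. Its own transcript had 3365 and 2760 reads in the controls but 1086 and 1082 after knockdown (log2 fold change -1.55, SE 0.11, edgeR adjusted p = 0.00069). The cells had the markers of ESCs in all libraries, with 8 of 8 ESC markers tested. Their summed level was 6087 to 6303 CPM in shScramble and 5424 to 5943 in shYthdf2, with a median log2 fold change of -0.09. At an unadjusted p under 0.05 in edgeR, 3 of the 8 were lower and 0 higher, beside 20.8% of all genes in either direction. Only Tdgf1 was called (log2 fold change -0.47, edgeR adjusted p = 0.041), beside 3.91% of all genes. Of 7 fibroblast markers only 3 passed the filter, their summed level was 4.97 to 13.2 CPM, and Dcn and Twist2 were at 0. Markers of 2C-like cells, a rare state resembling the early embryo, summed to 40.0 and 58.1 CPM in shScramble and to 76.1 and 194 CPM in shYthdf2. Of these 10 markers 9 were tested, with a median log2 fold change of 1.29. In edgeR, 7 were higher at an unadjusted p under 0.05, a cut that 20.8% of all genes passed in either direction. Zscan4a and Usp17la were called higher at an adjusted p under 0.05, beside 3.91% of all genes called. In bulk RNA, a change in the share of such cells and a change in RNA per cell cannot be told apart, and the part of 2C-like cells in the differences below was not tested.

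The share of reads from mitochondrial genes did not separate the groups. It was 1.80% and 1.50% in shScramble and 2.03% and 1.60% in shYthdf2, so the lower shYthdf2 library lay between the shScramble libraries. The means were 1.65% ± 0.217 and 1.81% ± 0.304 (SD, n = 2), a log2 ratio of 0.14 (two-sided exact permutation test, p = 0.667, where 2 against 2 libraries cannot give less than 0.33). The ratio was -0.05 without shYthdf2 replicate 1 and 0.30 without shYthdf2 replicate 2. The mRNAs made up nearly all of it, with 1.76%, 1.47%, 1.96% and 1.55% of reads in the same order.

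No mitochondrial gene passed the test between the groups. At an adjusted p under 0.05 in edgeR's quasi-likelihood test, 0 of the 16 tested genes were called, where 3.91% of all 18341 genes tested were. At an unadjusted p under 0.05 there were 3 of 16, beside 20.8% of all genes: mt-Rnr2, COX2 and ATP8, each higher in shYthdf2. DESeq2 called 0 of the 16 (8.9% of all genes with an adjusted p) and limma-voom 0 of the 16 (3.39% of all genes). In each, 2 were at an unadjusted p under 0.05, and the share of all genes at that cut was not counted for these tools. Under the study's own criteria in DESeq2, an unadjusted p of at most 0.05 and at least a doubling or halving, 0 of the 16 passed, beside 2.88% of the 30565 genes with a read. Both shYthdf2 libraries lay above both shScramble libraries for 3 of 16 genes (mt-Rnr2, COX1 and COX2), and this held in either direction for 51.8% of all genes tested. Of the 16 log2 fold changes, 11 were above 0 and 5 below, with a median of 0.18, beside a median of 0.0019 over all genes tested. The count of 0 was not stable to single libraries: it was 4 without shScramble replicate 1 (beside 6.60% of all genes), 2 without shScramble replicate 2 (4.29%), 6 without shYthdf2 replicate 1 (5.95%) and 6 without shYthdf2 replicate 2 (11.8%). The share called over all genes thus rose in these fits as well. Each of them compares 2 libraries with 1, so 1 group had no spread of its own. Without shYthdf2 replicate 1, ND4L, ND4, ND5 and ND6 were called lower and ATP8 and mt-Rnr2 higher. Without shYthdf2 replicate 2, the 6 were mt-Rnr1, mt-Rnr2, ND1, ND2, COX2 and CYTB, each higher in shYthdf2.

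**Figure D2:**
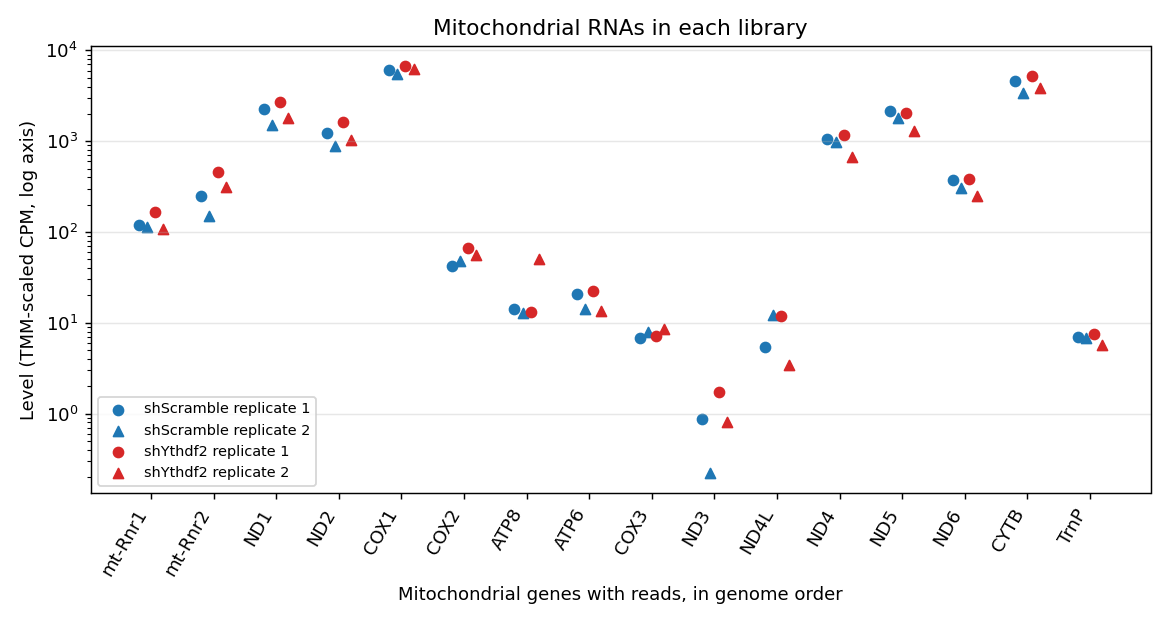
Level of each of the 16 mitochondrial genes with reads in each of the 4 libraries, in TMM-scaled CPM on a log axis, in genome order (blue shScramble, red shYthdf2, circles replicate 1, triangles replicate 2). Levels run from 0.222 CPM (ND3) to 6694 CPM (COX1), and the groups overlap for all but COX1, COX2 and mt-Rnr2.

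The large rRNA had the lowest p among the mitochondrial genes. The gene mt-Rnr2 (chrM:1094-2675, plus strand) makes the RNA of the large subunit of the mitochondrial ribosome. It had 9075 and 4704 reads in shScramble and 15846 and 11118 reads in shYthdf2, which is 252, 149, 464 and 311 CPM. Both shYthdf2 libraries were above both shScramble libraries, although replicate 1 of shScramble was closer to replicate 2 of shYthdf2 than to its own pair. The log2 fold change was 0.95 (SE 0.24, edgeR adjusted p = 0.058), which missed the threshold. It stayed above 0 in 14 other settings, lowest at 0.62 without shScramble replicate 2 and highest at 1.38 without shScramble replicate 1. Among the settings with all 4 libraries, the gene passed the threshold without a filter on low counts and with the replicate number as a block, and in no other. The highest adjusted p was 0.22, in DESeq2. The fits that left out 1 library compare 2 libraries with 1, so 1 group had no spread of its own, and their p-values are not given here. Read for read, mt-Rnr2 amounted to 1.41% and 1.03% of the reads on mitochondrial mRNAs in shScramble and to 2.32% and 2.03% in shYthdf2, a log2 ratio of 0.83. This ratio does not depend on how the libraries are scaled.

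The small-subunit rRNA, mt-Rnr1 (chrM:70-1024, plus strand), lies upstream of it, a tRNA gene apart. It had 4335 and 3600 reads in shScramble and 5616 and 3899 in shYthdf2, or 120, 114, 164 and 109 CPM. The shYthdf2 libraries lay on either side of the shScramble libraries, and the log2 fold change was 0.22 (SE 0.17, edgeR adjusted p = 0.51). It was -0.11 without shYthdf2 replicate 1. The ratio of mt-Rnr2 to mt-Rnr1 reads was 2.09 and 1.31 in shScramble and 2.82 and 2.85 in shYthdf2. Nearly the same value was thus found in both shYthdf2 libraries, while the shScramble libraries differed from each other by more than shScramble replicate 1 differed from shYthdf2. Since the RNA had been selected for poly(A) tails, nuclear RNAs that lack such a tail were looked at beside the rRNAs. Of 13 such RNAs listed, 10 had a row and 5 were tested, and Rny1, Rny3 and Rnu11 were at 0. Of the 5 tested, 0 were called, beside 3.91% of all genes. At an unadjusted p under 0.05 in edgeR 1 was lower and 0 higher, beside 20.8% of all genes, and the median log2 fold change was -0.77. The summed level of the list was 3.86 and 4.09 CPM in shScramble and 2.84 and 3.16 CPM in shYthdf2. These levels rest on few reads: Rn7sk, which had the lowest p of the list, had 30 and 25 reads in shScramble and 12 and 8 in shYthdf2. The part of the selection in the rRNA counts was not tested.

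Complex IV (cytochrome c oxidase), the last enzyme of the respiratory chain, takes 3 subunits from mitochondrial DNA. COX1 (chrM:5328-6872, plus strand) encodes its catalytic core subunit and was the most counted mitochondrial gene. It had 218205 and 173937 reads in shScramble and 228826 and 225896 in shYthdf2, or 6059, 5521, 6694 and 6312 CPM. The groups did not overlap, but the log2 fold change of 0.17 (SE 0.10) did not pass (edgeR adjusted p = 0.40). COX2 (chrM:7013-7696, plus strand), the subunit that takes up electrons from cytochrome c, had 1535 and 1514 reads in shScramble and 2278 and 1992 in shYthdf2, or 42.6, 48.1, 66.6 and 55.7 CPM. Its groups did not overlap either, and the log2 fold change was 0.43 (SE 0.13, edgeR adjusted p = 0.10). Among the settings with all 4 libraries, COX2 passed without a filter on low counts and with the replicate number as a block, and in no other. Its log2 fold change was 0.30 without shYthdf2 replicate 1 and 0.56 without shYthdf2 replicate 2. COX3 (chrM:8607-9390, plus strand) had 245, 252, 243 and 302 reads, or 6.80, 8.00, 7.11 and 8.44 CPM (log2 fold change 0.07, SE 0.22, edgeR adjusted p = 0.90). Complex IV mRNAs as a whole took 0.604% and 0.565% of reads in shScramble and 0.665% and 0.646% in shYthdf2.

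CYTB (chrM:14145-15288, plus strand) encodes cytochrome b, the only subunit of complex III that mitochondrial DNA supplies. It had 164327 and 106710 reads in shScramble and 178655 and 137002 in shYthdf2, or 4563, 3387, 5226 and 3828 CPM. The values paired by replicate number and not by group, with both libraries numbered 1 above both numbered 2. The log2 fold change was 0.19 (SE 0.17, edgeR adjusted p = 0.58), and -0.06 without shYthdf2 replicate 1.

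Complex I (NADH dehydrogenase), the entry point for electrons from NADH, takes 7 subunits from mitochondrial DNA. Of their 7 log2 fold changes, 3 were above 0 and 4 below, and the median was -0.12. ND1 (chrM:2751-3707, plus strand) had 82089 and 48053 reads in shScramble and 93098 and 64501 in shYthdf2, or 2279, 1525, 2723 and 1802 CPM (log2 fold change 0.25, SE 0.21, edgeR adjusted p = 0.55). ND2 (chrM:3914-4951, plus strand) had 44816, 28122, 55756 and 37286 reads, or 1244, 893, 1631 and 1042 CPM (0.32, SE 0.21, adjusted p = 0.42). Both genes had the same order of libraries as CYTB, with the libraries numbered 1 on top and shYthdf2 above shScramble within each number.

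The log2 fold changes of ND4 and ND5, farther along the plus strand, were below 0. ND4 (chrM:10167-11544) had 38036 and 30721 reads in shScramble and 40075 and 24177 in shYthdf2, or 1056, 975, 1172 and 676 CPM (log2 fold change -0.14, SE 0.20, edgeR adjusted p = 0.76). ND5 (chrM:11742-13565) had 78332, 56539, 70074 and 46081 reads, or 2175, 1795, 2050 and 1288 CPM (-0.25, SE 0.19, adjusted p = 0.50). For both, shYthdf2 replicate 2 was the lowest of the 4 libraries, and without it the log2 fold changes were 0.21 and 0.05. ND5 was the only one of the 16 genes that was lower in shYthdf2 within both replicate numbers, with log2 differences of -0.0856 and -0.479. Nothing in the labels pairs the libraries, and the share of all genes lower within both numbers was not counted. As a share of the reads on mitochondrial mRNAs ND5 was also lower, at 12.2% and 12.4% in shScramble and 10.2% and 8.40% in shYthdf2. The ratio of ND5 to CYTB reads was 0.477 and 0.530 in shScramble and 0.392 and 0.336 in shYthdf2. This ratio is one of 7 between mitochondrial genes that were chosen after the reads had been seen, and it was not tested.

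ND6 (chrM:13552-14070) is the only mRNA gene on the minus strand, and its end overlaps that of ND5. It had 13627 and 9569 reads in shScramble and 13075 and 8808 in shYthdf2, or 378, 304, 382 and 246 CPM (log2 fold change -0.12, SE 0.19, edgeR adjusted p = 0.78). ND6 moved with ND5 across the libraries, and the ratio of their reads stayed between 0.169 and 0.191. The count ignored strand, so reads of ND6 mRNA and of plus-strand RNA running through it cannot be told apart.

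The 2 remaining complex I genes were counted little and unevenly. ND3 (chrM:9459-9806, plus strand) had 31 and 7 reads in shScramble and 59 and 29 in shYthdf2, or 0.861, 0.222, 1.73 and 0.810 CPM (log2 fold change 1.20, SE 0.66, edgeR adjusted p = 0.34). With 1 library left out its log2 fold change ran from 0.55 to 2.49. ND4L (chrM:9877-10173, plus strand) had 194 and 380 reads in shScramble and 408 and 123 in shYthdf2, or 5.39, 12.1, 11.9 and 3.44 CPM (-0.18, SE 0.51, adjusted p = 0.89). The ND4L values crossed: the higher library was replicate 2 in shScramble and replicate 1 in shYthdf2. Without either replicate 2 its log2 fold change turned to 0.51 (without that of shScramble) or 0.46 (without that of shYthdf2). The nuclear copy of ND4L, Gm10222, has a row of its own and is identical over 294 bases. It had 22.6 and 22.3 CPM in shScramble and 54.4 and 11.2 CPM in shYthdf2, so it too differed more between the shYthdf2 libraries than between the groups. ND4L and Gm10222 summed to 28.0, 34.3, 66.4 and 14.7 CPM.

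The ATP synthase genes ATP8 and ATP6 overlap by 43 bases, and both encode subunits of its membrane part. ATP8 (chrM:7766-7969, plus strand) is shown whole because a single library set its result, with the bases that ATP6 shares in capitals.

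ATP8: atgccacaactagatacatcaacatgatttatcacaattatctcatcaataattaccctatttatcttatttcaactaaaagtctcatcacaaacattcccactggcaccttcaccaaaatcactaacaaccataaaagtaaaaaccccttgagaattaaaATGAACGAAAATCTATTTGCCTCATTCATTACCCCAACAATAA

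ATP8 had 509 and 407 reads in shScramble and 451 and 1800 in shYthdf2, or 14.1, 12.9, 13.2 and 50.3 CPM. Only shYthdf2 replicate 2 stood above the others. The log2 fold change was 1.23 (SE 0.45, edgeR adjusted p = 0.16), and it was -0.04 without that library. Of the 55 windows of 150 bases in ATP8, 12 are free of ATP6, and reads that touch both genes are left out of both counts. ATP6 (chrM:7927-8607, plus strand) had no such high library, with 746, 445, 762 and 485 reads, or 20.7, 14.1, 22.3 and 13.6 CPM (log2 fold change 0.04, SE 0.26, adjusted p = 0.95). Its nuclear copy Gm10925, identical over 678 bases, had 24.7 and 30.2 CPM in shScramble and 38.8 and 34.2 CPM in shYthdf2 (log2 fold change 0.41, SE 0.15, edgeR adjusted p = 0.16). ATP6 and Gm10925 summed to 45.4, 44.4, 61.1 and 47.8 CPM.

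**Figure D3:**
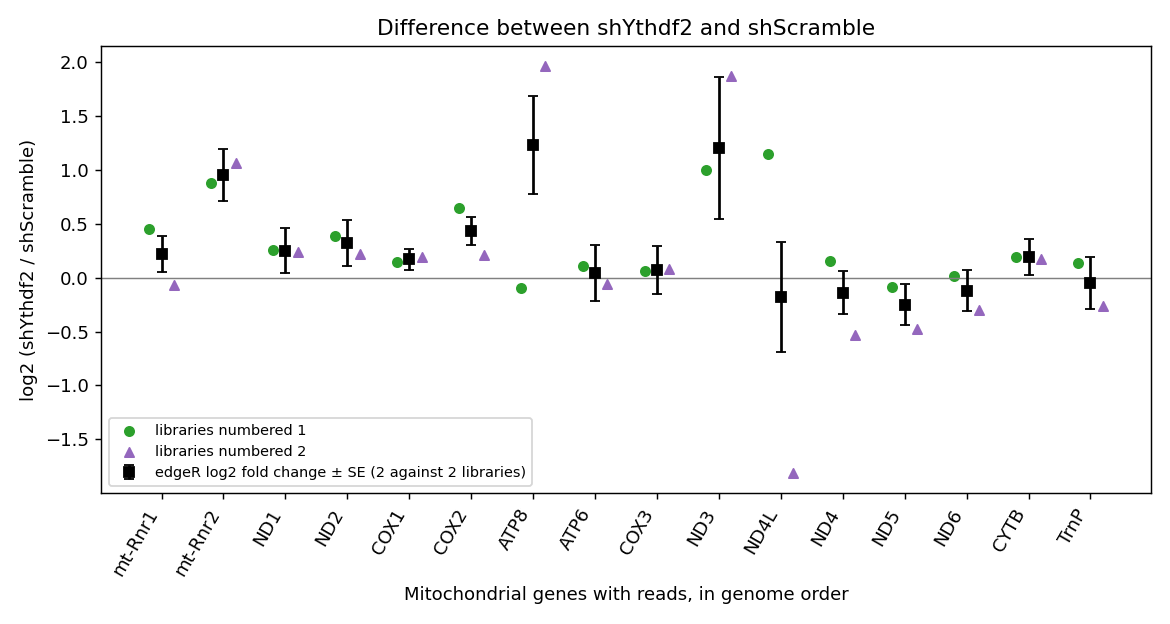
Difference between shYthdf2 and shScramble for the 16 mitochondrial genes with reads, on the log2 scale. Black squares with bars are edgeR log2 fold changes ± SE over 2 against 2 libraries, green circles the difference within the libraries numbered 1 and purple triangles within those numbered 2. For mt-Rnr2 both numbers give about 1, while for ATP8 and ND4L the numbers lie far apart.

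The annotated ends of the mRNA genes differ in whether the stop codon is whole. COX3 (784 bases), ND4 (1378 bases) and CYTB (1144 bases) each end in a lone T after their last full codon, so the tail must supply the rest of the stop codon. As annotated, ND1 and ND2 end in TAG, and the 8 other mRNA genes end in TAA. The last 2 bases of ND1 and of ND2 also belong to the next tRNA gene, TrnI and TrnW. The last base of ATP6 is also the first of COX3. Where these mRNAs end after cutting was not tested, so they may need the tail as well. The log2 fold changes of the 3 genes with an incomplete stop in the annotation were 0.07 (COX3), -0.14 (ND4) and 0.19 (CYTB), each within the range of the others.

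Mitochondrial genes with many reads had wider gaps between replicates, in the median, than all genes with as many reads. Replicate 2 was below replicate 1 for 10 of the 13 mRNAs in shScramble and for 11 of 13 in shYthdf2, with median log2 differences of -0.28 and -0.64. Over the 16 genes tested, the size of the gap had a median of 0.30 in shScramble and 0.62 in shYthdf2. For the 10 mitochondrial genes with a mean of at least 1000 reads these medians were 0.297 and 0.594, beside 0.104 and 0.143 for all 6522 genes with as many reads. The gap had the same sign in both groups for 13 of the 16 genes, beside 60.6% of all tested genes with a read in every library. Among genes with a mean of at least 1000 reads, it did so for 9 of the 10 mitochondrial genes and for 62.2% of all 6522. In 13 of 16 genes a gap between replicates was larger than the log2 fold change between the groups. A gap between single libraries varies more than a difference of group means, and the larger gap of each gene was taken. This count would thus be high even without a difference between the groups, and its share over all genes was not computed.

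COX1, the most counted gene, was nearly even, with log2 gaps of -0.13 in shScramble and -0.08 in shYthdf2. CYTB (-0.43 and -0.45) and ND1 (-0.58 and -0.60) had nearly the same gap in both groups. As a result the ratio of CYTB to COX1 reads went with the replicate number, at 0.753 and 0.781 in the libraries numbered 1 and 0.613 and 0.606 in those numbered 2. The ratio of ND1 to COX1 reads did so too, at 0.376 and 0.407 against 0.276 and 0.286. ND4 was nearly even in shScramble (-0.12) and uneven in shYthdf2 (-0.80), and ATP8 (-0.13 and 1.93) and ND4L (1.16 and -1.80) turned sign. The labels name no batch behind the replicate numbers, and what lies behind the gaps was not tested.

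**Figure D4:**
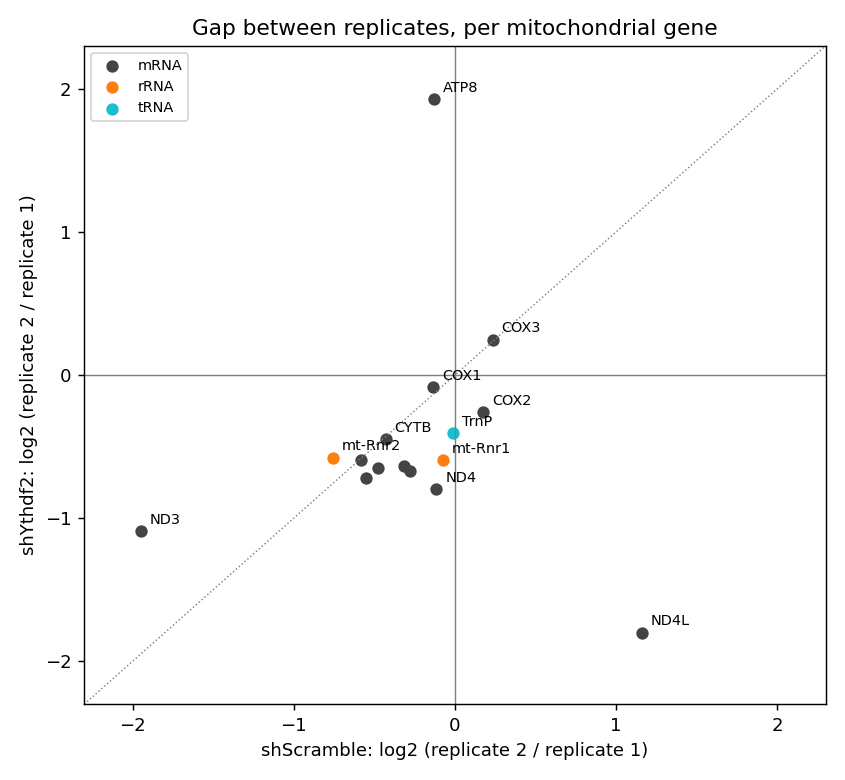
Log2 difference between replicate 2 and replicate 1 in shYthdf2 (vertical) against the same difference in shScramble (horizontal) for the 16 mitochondrial genes with reads, coloured by class (mRNA, rRNA, tRNA), with a dotted line where both are equal. Most genes lie at the lower left, below 0 in both groups, while ATP8 and ND4L lie apart.

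Within each replicate number the comparison of the groups was repeated. Among the mRNAs, 11 of 13 were higher in shYthdf2 in the libraries numbered 1 (median log2 difference 0.15) and 8 of 13 in those numbered 2 (median 0.18). Higher within both numbers were 8 of the 16 genes: mt-Rnr2, ND1, ND2, COX1, COX2, COX3, ND3 and CYTB. Of these, mt-Rnr2 had differences of 0.88 and 1.06 and ND3 of 1.00 and 1.87, the latter on few reads. COX1 had 0.14 and 0.19, and COX3 only 0.06 and 0.08. Nothing in the labels pairs the libraries by number. How many of all genes kept their direction within both numbers was not counted, so the 8 genes cannot be set against that share. The median over the mRNAs was 0.17 with all libraries and went down to -0.06 when shYthdf2 replicate 1 was left out and up to 0.35 when shYthdf2 replicate 2 was.

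Nuclear genes that make, cut, modify or charge mitochondrial RNA were examined beside it. Of 91 genes with a row on 4 lists of such genes, all 91 were tested and 1 was called, where 3.91% of all genes were. Lactb2, a nuclease of mitochondrial RNA, had a mean of 147 ± 3.01 CPM in the controls, and of 99.1 ± 1.30 CPM after knockdown (SD, n = 2). It fell by 0.57 on the log2 scale (SE 0.10, edgeR adjusted p = 0.020). The other 22 tested genes of RNA processing, polyadenylation and decay did not pass, and the median over the list was 0.04.

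Among the 21 genes of mitochondrial transcription and DNA maintenance, 0 were called in either direction, and 3 were higher and 2 lower at an unadjusted p under 0.05, a cut that 20.8% of all genes passed, as also for the counts of the next lists. The lowest p belonged to Tefm, which keeps the mitochondrial RNA polymerase elongating, with 20.4 and 17.2 CPM in shScramble and 28.1 and 28.1 CPM in shYthdf2 (log2 fold change 0.58, SE 0.15, edgeR adjusted p = 0.069). The median over the list was 0.02. Of 25 genes that modify mitochondrial rRNA or tRNA 0 were called (3 higher and 1 lower unadjusted), led by the tRNA-modifying enzyme Trit1 at -0.52 (SE 0.14, adjusted p = 0.071), with a median of 0.05. Of 22 genes that charge mitochondrial tRNAs 0 were called (2 higher and 1 lower unadjusted), led by the methionyl-tRNA synthetase Mars2 at 0.44 (SE 0.15, adjusted p = 0.13), with a median of 0.06.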

How the data were processed

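The authors deposited raw counts of reads for each gene in 1 table that covers the 4 libraries, neither scaled nor pooled. Per the file headers it was made with featureCounts 2.0.3 over the exons of the mm10 RefSeq annotation. The paired-end option was set without counting pairs, so each read was counted. No strand option and no option for reads with several positions was set. The submitters' processing notes also list fastp 0.19.4, HISAT2 2.2.1 and DESeq2 1.40.2. The table has 4 columns of values, all used, and 0 others. Libraries were placed in their groups by title, and the p-values measure the spread between 2 replicates per group.

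Counts were tested with edgeR 4.0.16 in R 4.3.3 (quasi-likelihood F test, two-sided, TMM scaling, filterByExpr with a minimum count of 10 and a total of 15, no covariate). The 18341 genes past the filter were adjusted together by the Benjamini-Hochberg method. The coefficient of biological variation was 15.8%, and replicate counts differed beyond sampling noise (chi-square per degree of freedom 12.4 in shScramble and 20.8 in shYthdf2). Alternatives were other scalings and filters, DESeq2 1.42.0, limma-voom (limma 3.58.1), halved counts, the replicate number as a block and leaving out each library. The study's criteria in DESeq2, library totals for the replicate gaps and mt-Rnr2 per mitochondrial mRNA read were added after the data had been seen.

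Sequence shared between genes was found by exact match of 150-base windows to GENCODE transcripts of the same build. The members and the gene lists were chosen with earlier results of these data known. Named were all mitochondrial mRNAs and rRNAs, tRNA genes past the filter, Ythdf2, and, of the nuclear lists, called genes and the lowest p in each. The nuclear copies were named after their values had been seen.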

Additional observations from a re-analysis of the deposited data

How the results depend on the processing

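With 2 libraries per group, leaving out 1 library changed calls and directions. The count of mitochondrial genes called, 0 at first, was 4 without a filter on low counts (ATP8, COX2, ND2 and mt-Rnr2, beside 6.34% of all genes) and 2 to 6 when 1 library was left out (4.29% to 11.8% of all genes). The count of nuclear genes called on the lists for mitochondrial RNA was 1 at first, 7 without the filter, 7 in DESeq2 (8.9% of all genes) and 1 to 6 with 1 library left out, under the same shares of all genes. Other scalings, a filter at a mean of 1 CPM, limma-voom and halved counts changed neither count. The log2 fold change of TrnP ran from -0.27 to 0.14 when 1 library was left out, and the median of the mRNAs from -0.06 to 0.35. The log2 fold changes of 12 genes turned sign with 1 library left out. Without shYthdf2 replicate 1, several were at their lowest, while the same genes were higher without another library: mt-Rnr1 ran from -0.11 to 0.49, ND1 from -0.08 to 0.57, ND2 from -0.04 to 0.61, ATP6 from -0.36 to 0.35 and CYTB from -0.06 to 0.42. Without shScramble replicate 2, ND1 was -0.01, ATP6 -0.21 and CYTB -0.01. Leaving out shYthdf2 replicate 1 and then replicate 2 moved ND4 from -0.59 to 0.21, ND5 from -0.63 to 0.05, ND6 from -0.47 to 0.17, TrnP from -0.27 to 0.14, and ATP8 from 1.89 to -0.04. ND4L ran from -1.34 to 0.51 and was 0.46 without shYthdf2 replicate 2. COX3 ran from -0.06 to 0.19 and was -0.04 without shScramble replicate 1, where ND6 was 0.05. The log2 fold changes of mt-Rnr2, COX1, COX2 and ND3 kept their sign in every setting run, with ND3 between 0.55 and 2.49 when 1 library was left out.

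The libraries share replicate numbers across the groups, but nothing in the labels pairs them. Over all tested genes, the log2 gap between the replicates in shScramble correlated with that in shYthdf2 at 0.225. With the replicate block, 6 mitochondrial genes were called (ND5 lower, and ATP8, COX2, ND1, ND2 and mt-Rnr2 higher) beside 19.2% of all genes, and 14 genes on the nuclear lists. The cause was not tested.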
